A study of Mus musculus with 2 samples.

Results

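ABC transporter genes are described here in the adrenal gland of young female mice. A gene was counted as a member when its symbol began with Abca, Abcb, Abcc, Abcd, Abce, Abcf or Abcg followed by a digit and its type was protein-coding. This rule found 50 genes among 22028 protein-coding and 55536 annotated genes: 16 in subfamily A, 10 in B, 10 in C, 4 in D, 1 in E, 3 in F and 6 in G. Total RNA from the whole gland, 300 ng per library, had been sequenced in 2 libraries of a single group, called replicate 1 and replicate 2. The animals were female B6CASTF1/J mice, an F1 hybrid with a CAST parent, 25 days old, with no treatment and no engineered allele named. The labels differ on whether the libraries came from separate animals, since the tissue descriptions number different females and the donor field is the same. Any spread between the libraries may therefore be technical, and with 1 group the design holds no contrast other than one library against the other.

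ABC proteins bind ATP through paired nucleotide-binding domains and most of them use it to carry a substrate across a membrane. Abcb1a and Abcb1b encode P-glycoprotein, the multidrug efflux pump, which is a single gene in humans and a pair of neighbouring genes in mice. Rodent adrenal cortex is a classical site of P-glycoprotein, where steroids are among its substrates, while Abcb1a is the form of the brain capillary endothelium and the gut. Abca1 loads cellular cholesterol and phospholipid onto apolipoprotein A-I and is a classical target of the sterol-sensing liver X receptors. The members of subfamilies E and F have no membrane-spanning part and act on ribosomes.

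Values are given as TPM, the usual transcript level, which is corrected for length and sums to the same total in every library, and as counts, the estimated number of reads of a gene. Wherever a pair of values is given without a name, replicate 1 comes first and replicate 2 second. Expected counts totalled 19366343 in replicate 1 and 33728646 in replicate 2, of which nuclear protein-coding genes other than Lars2 took 36.3% and 66.1%. The members held 47776 counts in replicate 1 and 138905 in replicate 2, which is 0.679% and 0.623% of the counts of those coding genes. Coding genes took the smaller part in replicate 1. By the first of 2 deposited quantifications, TPM was higher in replicate 2 for 31 of the 32 members at 1 TPM or more in both libraries. The same held for 97.7% of the 11352 protein-coding genes at that level. The exception among the members was Abca1, which the second quantification also put higher in replicate 2 (58.8 and 83.8 TPM). A second scale, coding TPM, was also used: TPM rescaled so that the same coding genes sum to that total. The SD of a TPM value carries this gap, which nearly all genes share. All 8 markers of the adrenal cortex and all 6 of the medulla were at 1 TPM or more in both libraries. Replicate 1 stood apart in its 8 hepatocyte markers, which summed to 209 TPM against 3.83 TPM in replicate 2.

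Abcb1a lies at chr5:8660077-8748575 and Abcb1b at chr5:8798147-8866315, both on the plus strand of mm10, with 49571 bases between them. Abcb4, the phosphatidylcholine exporter of bile, follows 27401 bases further on at chr5:8893717-8959231. The coding sequences of Abcb1a and Abcb1b, 3831 bases each, were 88.0% identical over 3822 aligned bases, against 75.6% for Abcb1a with Abcb4 and 73.7% for Abcb1b with Abcb4. Within single exons, 314 of 1755 aligned windows of 75 bases held no difference between Abcb1a and Abcb1b (17.9%), and the median window held 3. The most alike and the least alike stretch are shown because reads from the former fit both genes and reads from the latter tell them apart. The most alike stretch, in exon 12 of 28, spans chr5:8702153-8702227 in Abcb1a and chr5:8824473-8824547 in Abcb1b, has 0 differences, and its end encodes the first Walker A loop, which grips ATP.
Abcb1a and Abcb1b, most alike: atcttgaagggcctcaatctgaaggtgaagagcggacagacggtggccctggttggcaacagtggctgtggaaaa
The least alike stretch, in exon 16 of 28, spans chr5:8714907-8714981 in Abcb1a and chr5:8827346-8827420 in Abcb1b. Capitals mark the 28 positions of 75 that differ.
Abcb1a, least alike: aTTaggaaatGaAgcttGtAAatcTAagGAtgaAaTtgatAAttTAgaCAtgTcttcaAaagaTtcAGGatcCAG
Abcb1b, least alike: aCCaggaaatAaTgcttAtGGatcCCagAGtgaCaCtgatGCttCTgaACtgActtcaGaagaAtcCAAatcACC
Windows of 100 bases identical in another gene made up 7.72% of the longest coding transcript of Abcb1a and 8.72% of that of Abcb1b. With windows of 31 bases these shares were 23.2% and 25.2%. At either length most positions of both genes could thus be told apart. Of the 50 members, 26 shared any window of 31 bases with another gene and 7 any window of 100 bases. Abcb6 shared the most (86.6% at 100 bases), with the overlapping same-strand gene Gm29253, and its counts are uncertain for that reason.

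The promoters of the members with the highest levels are shown with the motifs found in them, as the 250 bases before the RefSeq start site (GRCm38.p6, the release of mm10 used). Capitals mark the motif letters. The Abcb1b promoter is chr5:8797897-8798146 on the plus strand, with a CCAAT motif 87 bases before the start on the plus strand, the same motif on the minus strand at 66 bases, and GGGCGG at 48 bases.
Abcb1b promoter: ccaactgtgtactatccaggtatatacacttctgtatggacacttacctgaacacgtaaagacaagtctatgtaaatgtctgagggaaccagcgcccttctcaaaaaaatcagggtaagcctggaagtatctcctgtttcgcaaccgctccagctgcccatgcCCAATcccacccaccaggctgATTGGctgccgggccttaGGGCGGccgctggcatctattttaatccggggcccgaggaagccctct
The Abca1 promoter is chr4:53159896-53160145 on the minus strand, with GGGCGG at 163 and 97 bases before the start and TATAAA at 29 bases, where TATA boxes usually lie.
Abca1 promoter: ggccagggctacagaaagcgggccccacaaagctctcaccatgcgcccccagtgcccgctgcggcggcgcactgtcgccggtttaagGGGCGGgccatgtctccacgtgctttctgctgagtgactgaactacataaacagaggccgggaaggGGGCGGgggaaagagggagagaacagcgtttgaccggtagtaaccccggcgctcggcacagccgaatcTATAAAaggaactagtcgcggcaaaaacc
Neither window held CAAGGTCA, the binding letters of steroidogenic factor 1 (Nr5a1), or TGACGTCA, the cyclic AMP response element. All 5 motifs were searched on both strands, none of them contains another, and TGACGTCA reads the same on both strands. Of all 32817 promoters of this length, 33.8% held CCAAT, 32.7% GGGCGG, 12.4% TATAAA, 1.33% CAAGGTCA and 1.55% TGACGTCA. Promoters were matched for 38 of the 50 members. Of these 38, 13 held CCAAT, 17 GGGCGG, 5 TATAAA, 2 CAAGGTCA and 2 TGACGTCA. For 36 of the 38 a RefSeq start lay within 500 bases of the annotated gene start, and in windows at such starts CCAAT was found in 11, GGGCGG in 16 and TATAAA in 4. CAAGGTCA was found at such a start of Abcg2 and TGACGTCA at that of Abce1. The other member with CAAGGTCA was Abcc10, at a start 2586 bases from the annotated one. The other with TGACGTCA was Abcg2, at a start 56023 bases away. The RefSeq starts of Abcb1a and Abcc12 lay 92986 and 14096 bases away, and the Abcb1a window is not shown.

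Of the 50 members, 32 reached 1 TPM in both libraries, 15 in neither, 2 in replicate 2 alone and 1 in replicate 1 alone. Among all protein-coding genes the share at 1 TPM in both libraries was 51.5%. The detected members were all 4 of subfamily D, the 1 of E, all 3 of F, 8 of 10 in B, 8 of 16 in A, 5 of 10 in C and 3 of 6 in G. Of the 50, 11 had a mean of 10 TPM or more, and 1 of them, Abcb1b, exceeded 100 TPM. The share of all protein-coding genes past these levels was not counted. For scale, 10.1 TPM was rank 4420 of 22028 protein-coding genes in replicate 1, and 10.49 TPM was rank 6470 in replicate 2.

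**Figure D1:**
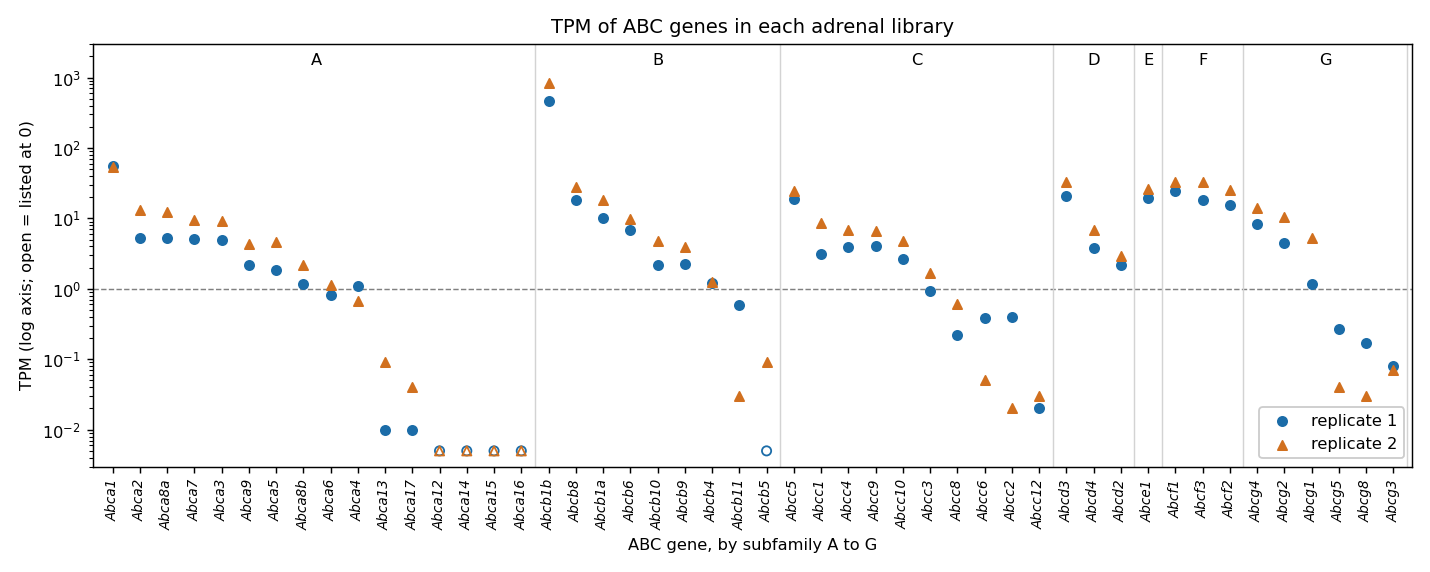
TPM of 48 of the 50 ABC genes on a log axis, ordered by subfamily and level, with circles for replicate 1, triangles for replicate 2, open symbols for genes listed at 0 and a dashed line at 1 TPM. Abcb1b stands alone at 471 and 847 TPM, while Abca12, Abca14, Abca15 and Abca16 are listed at 0 in both libraries.

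The summed TPM of the family was 763 in replicate 1 and 1292 in replicate 2, and on the coding scale 3689 and 3819. Abcb1b alone made up 61.8% of the sum in replicate 1 and 65.5% in replicate 2. Subfamily B thereby held 68.1% and 71.5% of the family's TPM, ahead of A with 10.9% and 8.67% and of F with 7.64% and 7.06%. Subfamilies C (4.52% and 4.15%), D (4.35% and 4.22%), E (2.58% and 2.04%) and G (1.88% and 2.33%) followed. The first 3 places were the same in both libraries, and the shares of C and D differed by less than 0.2 percentage points in each.

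**Figure D2:**
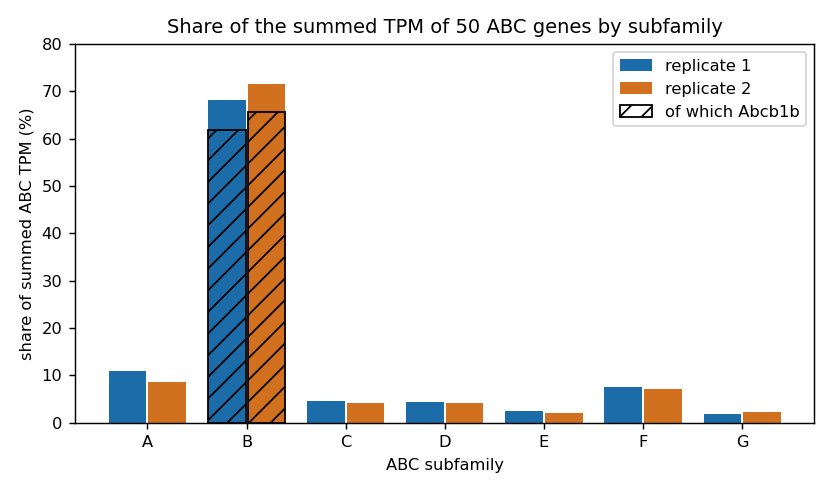
Share of the summed TPM of the 50 ABC genes held by each subfamily, in percent, with blue bars for replicate 1, orange bars for replicate 2 and hatching for Abcb1b. Subfamily B holds 68.1% and 71.5%, most of it Abcb1b.

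Among the 8 plasma membrane efflux pumps, Abcb1b was at 471 and 847 TPM (659 ± 266, SD, n = 2), from 26473 and 80457 expected counts. It ranked 35th and 24th among protein-coding genes. On the coding scale the levels were 2279 and 2503, so most of the gap in TPM went with the smaller coding part of replicate 1. The log2 ratio of replicate 2 over replicate 1 after TMM scaling, which sets the bulk of genes level, was −0.08 (95% counting interval −0.10 to −0.06). It was −0.04 in the second deposited quantification, 0.05 with spike-in counts and 0.81 with total counts as the scale, all outside that interval. Its sign thus depended on the scale. Relative to the median of all tested genes it lay between −0.11 and −0.08 under every setting.

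Abcb1a was at 10.1 and 18.5 TPM (14.3 ± 5.92, SD, n = 2), from 810 and 2753 counts. Its log2 ratio between the libraries was 0.08 (−0.03 to 0.20). Abcb4, the third gene of the row, was at 1.22 and 1.25 TPM, from 51.4 and 123 counts. In each library the order of the 3 neighbours by level was Abcb1b, Abcb1a, Abcb4. The markers of endothelium, where Abcb1a is known, summed to 145 and 265 TPM, with all 8 detected in both libraries and none at 0. Those of the adrenal cortex, where Abcb1b is known, summed to 9800 and 17665 TPM. The part of either cell type in these levels was not tested.

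The TPM of Abcb1b exceeded that of Abcb1a 46.7-fold in replicate 1 and 45.9-fold in replicate 2 (46.3 ± 0.570, SD, n = 2). In the second deposited quantification, a transcript table summed per gene, the same ratio was 59.5 and 38.7 (49.1 ± 14.7), so the close match of the first was not seen there. The ratio of expected counts, which is not per length, was 32.7 and 29.2 first, then 34.8 and 29.7 for the other quantification. With the full-length coding transcript of each gene alone (Abcb1b-201 and Abcb1a-201), the TPM ratio was 36.6 and 31.9, and 37.7 and 31.6 by the second quantification. Abcb1b was thus the higher gene by at least 29.2-fold on each of these scales in both libraries. With 2 libraries, each holding both genes, the smallest two-sided exact permutation p over the pairs is 0.5, so no test of the gap is given. Of the counts of the pair, Abcb1b held 97.0% in replicate 1 (exact 95% interval 96.8% to 97.2%) and 96.7% in replicate 2 (96.6% to 96.8%). These intervals cover counting error alone, not the division of shared reads, and Abcb1a, with 2.97% and 3.31% of the counts, is the more exposed to that division. By the first quantification, the genes that overlap exons of the pair on the opposite strand were near 0. Gm42686 at Abcb1a had 0 counts in both libraries, and Gm5106 at Abcb1b had 1 and 3 counts. The second quantification gave 3.13 and 20.6 counts for Gm42686 and 1.13 and 4.28 for Gm5106.

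**Figure D3:**
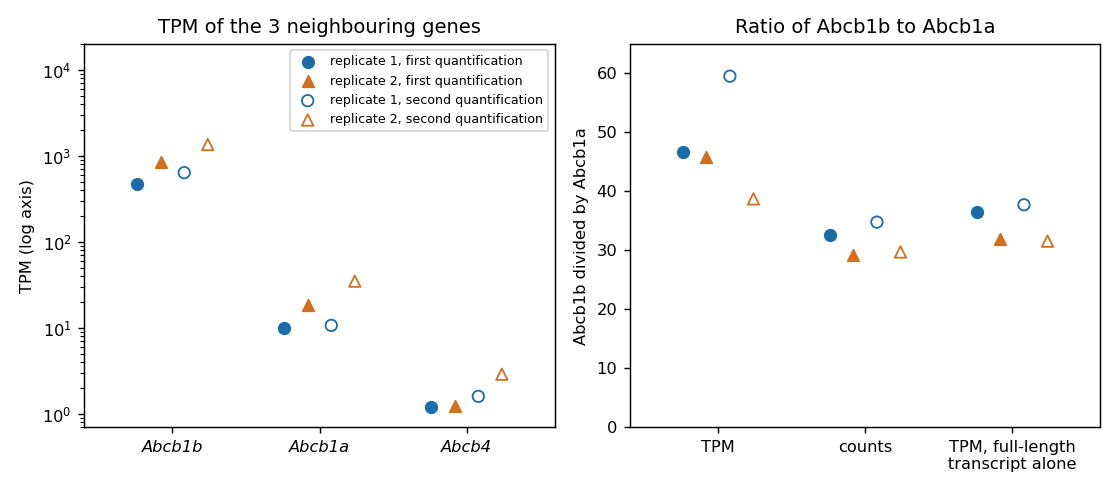
Left, TPM of Abcb1b, Abcb1a and Abcb4 on a log axis; right, the ratio of Abcb1b to Abcb1a on 3 scales. Filled symbols are the first quantification and open symbols the second, with circles for replicate 1 and triangles for replicate 2. The TPM ratio ranges from 38.7 to 59.5, and the full-length ratio from 31.6 to 37.7.

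The transcripts behind these levels differed between the pair. Abcb1b-201, the full-length coding transcript of 4306 bases, was at 369 and 568 TPM, which is 78.3% and 67.1% of the gene. Abcb1b-203, a transcript of 690 bases annotated as a nonsense-mediated decay target, was at 9.18 and 136 TPM (1.95% and 16.1%). The second quantification put Abcb1b-203 at 21.8% and 26.4% of the gene, above the first in both libraries. Abcb1a-201 took 100% and 96.5% of Abcb1a by the first quantification, and 96.1% and 72.4% by the second. The gap was taken by Abcb1a-203, a retained-intron transcript of 494 bases, at 27.6% in replicate 2 of the second quantification.

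Across the 32 detected members, the leading transcript was the same in both libraries for 28 members by the first quantification and 30 by the second, and in all 4 measurements for 25. The leading transcript was protein-coding in all 4 measurements for 30 of 32. The median share of a member's TPM in coding transcripts was 90.2% in replicate 1 and 86.4% in replicate 2. Abcc5, an exporter of cyclic nucleotides and other organic anions, was the 1 member with less than 50% in coding transcripts in both libraries. Its retained-intron transcript Abcc5-208 held 18.6% and 20.8% of the gene and its longest coding transcript Abcc5-202 17.4% and 25.1%.

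**Figure D4:**
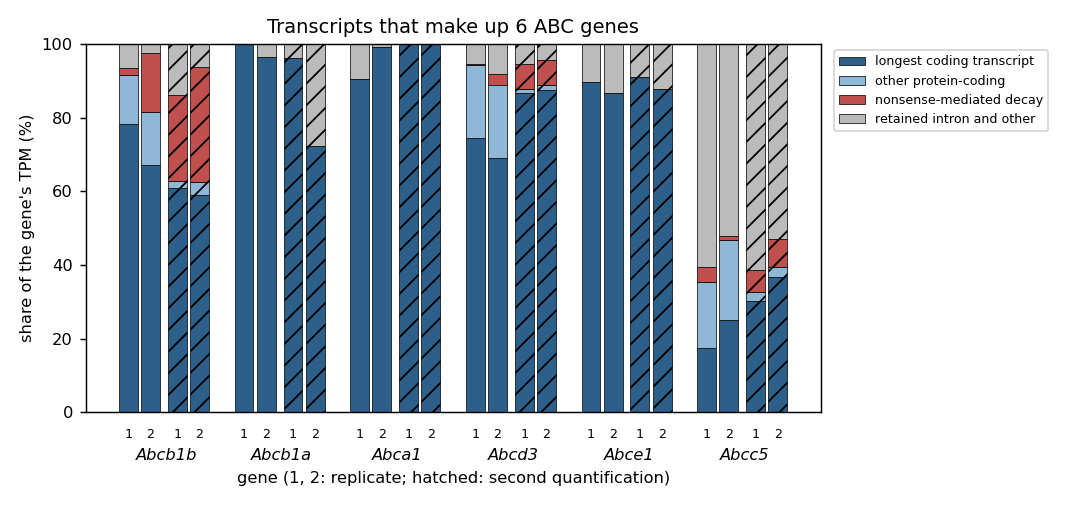
Share of the gene's TPM in percent by transcript class for 6 ABC genes, with a bar for each replicate and hatching for the second quantification. Abca1 and Abce1 are mostly the longest coding transcript, Abcb1b holds up to 26.4% in the decay transcript Abcb1b-203, and Abcc5 is mostly non-coding.

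The other efflux pumps were much lower than Abcb1b. Abcc5 was at 18.7 and 24.3 TPM. Abcg2, the breast cancer resistance protein, was at 7.46 ± 4.29 TPM. Abcc1, which exports glutathione conjugates such as leukotriene C4, was at 5.83 ± 3.87 TPM and Abcc4, which exports cyclic nucleotides and prostaglandins, at 5.44 ± 2.15 TPM. Abcc10 was at 3.74 ± 1.49 TPM. On the coding scale the library values of Abcc1 (14.9 and 25.3) overlapped those of Abcg2 (21.4 and 31.01) and Abcc4 (18.95 and 20.6). Both values of Abcg2 lay above both of Abcc4 (n = 2 throughout). Abcc3, a basolateral pump of bile acid conjugates, was at 0.94 and 1.68 TPM and so passed 1 TPM in replicate 2 alone.

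The 4 exporters of sterols and phospholipids were all detected, and Abca1 led them. Abca1 (chr4:53030787-53159895, minus strand, mm10) was at 55.6 and 54.4 TPM, from 8439 and 17242 counts. These TPM values were nearly level, but the second quantification gave 58.8 and 83.8 TPM. The full-length transcript Abca1-201 alone was at 50.35 and 53.92 TPM in the first quantification. The 775-base transcript Abca1-202 added 5.29 and 0.50 TPM there, and 0 in the second. On the coding scale Abca1 was at 269 in replicate 1 and 161 in replicate 2. The log2 ratio after TMM scaling was −0.65 (−0.69 to −0.62), and −0.62 in the second quantification. Relative to the median of all tested genes it lay between −0.68 and −0.66 under all 5 other settings, although with total counts as the scale, which shifts the median of all genes to 0.91, the ratio itself was 0.24. Abcg4, which hands cholesterol to HDL and is known mainly from brain, was at 8.22 and 14.3 TPM. Abca7, a relative of Abca1 with roles in lipid handling by phagocytes, was at 7.33 ± 3.18 TPM. Abcg1, the partner of Abca1 that moves cholesterol to HDL, was at 1.18 and 5.21 TPM, from 95 and 560 counts. Its log2 ratio was 0.87 (0.56 to 1.21), and 0.78 in the second quantification. Abca1 and Abcg1 were thus on opposite sides of the other members. The macrophage markers, since macrophages also carry Abca1 and Abcg1, summed to 26.3 TPM in replicate 1 and 46.4 in replicate 2, with 6 of 8 detected in both and none at 0. On the coding scale these sums were 127 and 137, with 6 of 8 markers higher in replicate 2, beside 5.71 and 15.4 for Abcg1. The 6 adipocyte markers summed to 3651 and 2767 on that scale, with 4 of 6 lower in replicate 2 and none at 0, and the 8 hepatocyte markers to 1010 and 11.3, with 8 of 8 lower. The part of these cell types in either ratio was not tested. In whole tissue, fewer cells of a type and less RNA per cell cannot be told apart.

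All 4 mitochondrial members were detected. Abcb8, described as part of the mitochondrial ATP-sensitive potassium channel, was at 18.5 and 27.6 TPM. Abcb6, described as a porphyrin transporter, was at 8.41 ± 2.05 TPM, with the overlap with Gm29253 given above. Abcb10, needed for early haem synthesis in red cell precursors, was lowest at 3.45 ± 1.80 TPM. The erythroid markers were also present, with all 5 above 1 TPM and a sum of 1517 and 2088 TPM, and their part in these levels was not tested.

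The 3 peroxisomal members were detected and led by Abcd3. Abcd3, which brings branched-chain and dicarboxylic acyl-CoA into peroxisomes, was at 20.95 and 32.5 TPM. Abcd2, a transporter of very long chain fatty acyl-CoA, was at 2.55 ± 0.474 TPM. Abcd3 was the highest and Abcd2 the lowest in each library.

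The 5 lysosomal members were detected too. Abca2, a lysosomal lipid transporter, was at 9.30 ± 5.73 TPM. Abca3, known from the lamellar bodies of the lung, was at 7.13 ± 2.99 TPM, and 9.75% of its exon bases lie opposite the antisense gene D330041H03Rik. Abcd4, which works with Lmbrd1 in releasing cobalamin from lysosomes, was at 5.36 ± 2.20 TPM. Abca5 was at 3.25 ± 1.94 TPM and Abcb9, the lysosomal peptide transporter, at 3.09 ± 1.14 TPM. Abca2 was highest, followed by Abca3 and Abcd4, in each library, and Abca5 and Abcb9 changed places.

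The 4 members that act in translation were all detected, with means of 20.4 to 28.6 TPM. Abcf1, a factor of translation initiation, was at 24.4 and 32.8 TPM. Abcf3, which is less well described, was at 18.4 and 33.1 TPM. Abce1, which splits ribosomes for recycling, was at 19.7 and 26.4 TPM. Abcf2 was at 15.6 and 25.3 TPM. On the coding scale, Abcf2 was lowest in each library at 75.3 and 74.8, beside 118 and 96.9 for Abcf1, 88.7 and 97.9 for Abcf3 and 95.2 and 78.0 for Abce1. The second quantification put Abcf1 at 46.9 TPM and Abcf2 at 18.5 TPM in replicate 1. With TMM scaling, Abce1 (log2 ratio −0.36, −0.46 to −0.26) and Abcf1 (−0.26, −0.36 to −0.15) were lower in replicate 2 beyond counting error. The intervals of Abcf2 and Abcf3 included 0. Intervals of members outside this group also excluded 0, on either side, such as Abcc1 (0.32, 0.14 to 0.51) and Abcd3 (−0.16, −0.26 to −0.06). The share of all genes doing so was not counted. With total counts as the scale the ratio of Abce1 was 0.53 and that of Abcf1 0.63. Relative to the median of all tested genes, Abce1 was at −0.39 on both scales.

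Abcc9 (SUR2), the regulatory subunit of the ATP-sensitive potassium channel of vascular smooth muscle and pericytes, was at 5.32 ± 1.77 TPM. Its partner Kcnj8 was at 2.87 ± 1.22 TPM. The 5 markers of pericytes and smooth muscle summed to 19.9 and 34.1 TPM, with 4 detected in both libraries and none at 0. The pancreatic counterpart Abcc8 (SUR1) was at 0.22 and 0.60 TPM from 11 and 57 counts, and its partner Kcnj11 at 0.39 ± 0.0990 TPM. The islet markers Ins1, Ins2 and Gcg were all listed at 0.

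The genes of the Abca6-like cluster lie side by side on chromosome 11 with Abca5, in the order Abca8b, Abca8a, Abca9, Abca6, Abca5, with gaps of 4770 to 29788 bases. Their substrates are poorly known. Abca8a was highest at 8.83 ± 5.01 TPM, followed by Abca9 at 3.28 ± 1.56 TPM and Abca8b at 1.66 ± 0.707 TPM. Abca6 was at 0.83 and 1.14 TPM from 70 and 150 counts, and passed 1 TPM in replicate 2 alone. Neighbours within the row therefore differed in level, as they did for Abcb1a, Abcb1b and Abcb4. Abca3 and Abca17 on chromosome 17, in opposite orientation with 881 bases between them, were at 7.13 and 0.0250 TPM.

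The 6 pumps of the bile canaliculus and liver, Abcb4 among them, were mostly below 1 TPM and stood out between the libraries at low counts. Abcb11, the bile salt export pump, had 39 counts in replicate 1 and 4 in replicate 2. Abcc2, which exports bilirubin conjugates into bile, had 39 and 5 counts. Abcc6, whose loss in humans causes pseudoxanthoma elasticum, had 24 and 3 counts. The sterol exporters Abcg5 and Abcg8, which form a dimer and overlap at their starts on opposite strands, had 10 and 3 counts and 8 and 3 counts. All 5 were higher in replicate 1 although replicate 2 was 3.21 times deeper after TMM scaling. The log2 ratios were −4.52 for Abcb11 (−6.91 to −3.50), −4.28 for Abcc2 (−6.35 to −3.30) and −4.12 for Abcc6 (−7.06 to −2.96). The second quantification gave Abcc2 48.5 and 15.0 counts and a smaller ratio of −3.20. They were −2.89 for Abcg5 (−5.92 to −1.46) and −2.59 for Abcg8 (−5.65 to −1.04). Abcb4, which liver also uses, had a log2 ratio of −0.42 (−0.90 to 0.09).

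Markers of hepatocytes moved with these pumps. All 8 were lower in replicate 2, with Alb at 4477 and 73 counts (log2 ratio −7.59) and Gc at 228 and 0 counts, so the liver pumps differed less than the markers did. The nuclear receptor Nr1i3, a liver xenobiotic sensor, had 18 counts in replicate 1 and 0 in replicate 2. The part of liver RNA in these results was not tested. With TMM scaling, none of the 32 members at 1 TPM or more in both libraries was 2-fold apart. The share of all genes at that level was not counted. Of all genes at a mean of at least 100 counts, 0.39% were 2-fold or more higher in replicate 2 and 0.927% lower. Beside these shares, 0 of 32 does not set the detected members apart.

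The remaining members were low or at 0. Abca4, the retinal flippase, had 27 and 48 counts and passed 1 TPM in replicate 1 alone (1.08 against 0.68 TPM), while the second quantification put it at 2.52 and 3.39 TPM. Abca13, Abca17, Abcb5, Abcc12 and Abcg3 had at most 6.01 counts in either library and were at 0.0250 to 0.0750 TPM on average. Abca12, the lipid transporter of skin, and Abca14, Abca15 and Abca16, a row of genes on chromosome 7, had 0 counts in both libraries, which allows up to 3 counts in each (one-sided limit at 95%). The second quantification gave Abca12 4.17 and 9.43 counts, mostly in a retained-intron transcript, and in replicate 2 alone it gave Abca14 1 count and Abca16 3 counts, so Abca15 was the 1 gene at 0 in both quantifications.

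The libraries were then compared across the members. At a mean of at least 100 expected counts, 32 members were tested: the detected ones without Abcb4, with Abca6 added. None of the 32 was 2-fold or more higher or lower in replicate 2 with TMM scaling, where 0.39% of the 11542 genes at that depth were 2-fold or more higher and 0.927% 2-fold or more lower. With spike-in counts as the scale 1 member (Abcg1, at 1.00) passed 2-fold, beside 1.43% of all tested genes, and with total counts 11 of 32 did, beside 36.1%. With TMM scaling and no minimum count 6 of 50 did, beside 9.02% of all annotated genes. At 1.5-fold, 1 member was higher (Abcg1, background 3.07%) and 1 was lower (Abca1, background 2.75%). The point value of Abca6, −0.58 from 70 and 150 counts, came next. The median log2 ratio of the members was 0.08, beside 0.03 for all tested genes, and the median size of the ratio was 0.16 for both. With TMM scaling 20 members were above 0 and 12 below, and 24 lay within 0.25 of 0. The split moved with the scale, to 25 and 7 with spike-in counts and 32 and 0 with total counts. The median of all tested genes was then 0.16 and 0.91. The same shares over all genes were not counted, so the split is not a result about the members. At a mean of at least 10 counts, 39 members were tested and 3 were 2-fold or more lower in replicate 2 (Abcb11, Abcc2 and Abcc6, background 2.84%). These ratios compare 1 library with 1 other and carry no p-value.

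**Figure D5:**
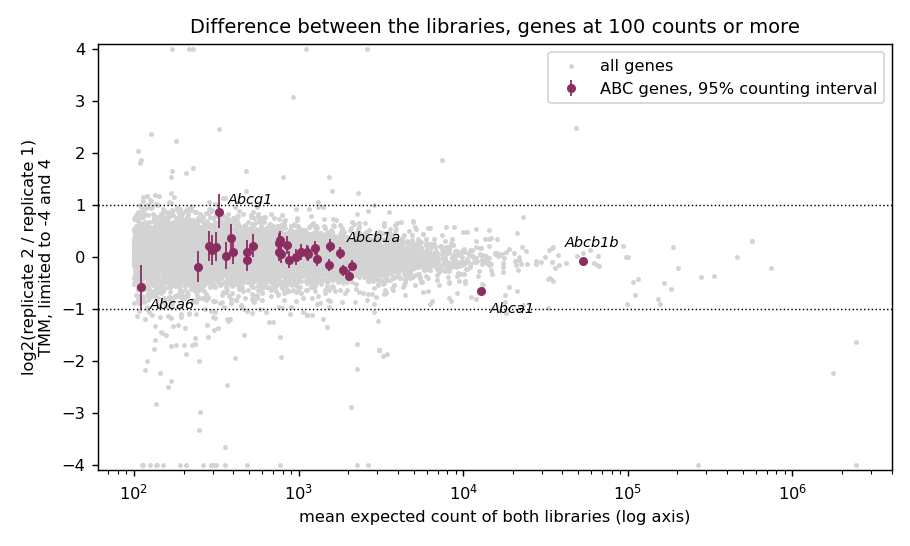
Log2 ratio of replicate 2 over replicate 1 with TMM scaling against the mean expected count (log axis), for all genes at 100 counts or more (grey) and the 32 ABC genes among them (purple, with 95% counting intervals). Dotted lines mark 2-fold. Abcg1 at 0.87 is highest and Abca1 at −0.65 lowest among the ABC genes.

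Of 16 regulators known to act on ABC genes, 13 were at 1 TPM or more in both libraries. Nr5a1, steroidogenic factor 1, was the highest at 197 ± 88.1 TPM. The sterol sensors Nr1h2 and Nr1h3, which encode the liver X receptors beta and alpha, were at 37.0 ± 12.9 and 5.14 ± 0.523 TPM. Srebf1 was at 39.6 ± 18.8 TPM and Srebf2 at 24.7 ± 9.57 TPM. Nr1i2, the pregnane X receptor known to induce P-glycoprotein in liver and gut, had 0 counts in both libraries, as did Nr1i3 in replicate 2, and Rxrg was below 1 TPM. Of 9 partners of ABC proteins, 8 were detected. Glrx5, of mitochondrial iron-sulfur assembly, was highest at 57.9 ± 27.5 TPM, and Pex19, the import receptor of peroxisomal membrane proteins, was at 37.2 ± 21.1 TPM. Of the 3 ABC genes that the symbol rule leaves out, the antigen peptide transporter genes Tap2 and Tap1 were at 13.8 ± 6.77 and 4.96 ± 2.72 TPM, and the chloride channel Cftr had 0 and 1 counts. At 100 counts or more, none of the 13 regulators, 8 partners and 2 further ABC genes tested was 2-fold or more apart between the libraries, beside the backgrounds of 0.39% and 0.927% given above.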

How the data were processed

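Total RNA of 2 adrenal libraries had been quantified on mm10 with GENCODE M21, per the labels and file headers. For the aligner, the quantification programs and the strand setting, nothing is stated in the labels or headers at hand. The first quantification holds expected counts and TPM per gene and transcript as the authors deposited them, and each transcript's deposited percent of its gene. The second holds estimated counts and TPM per transcript as deposited, which were summed per gene here. Reads of both parental alleles were measured against the mm10 reference.

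Library totals were 19366343 and 33728646 expected counts. Log2 ratios used TMM factors from edgeR 4.0.16 in R 4.3.3, computed from rounded expected counts, with a prior of 1 count. Intervals are exact (Clopper-Pearson) at 95% and cover counting error only, since reads were not tied to molecules. With 1 library on each side no differential test was run. The libraries' counts over 42 members differed beyond sampling noise (chi-square 1343 with 41 degrees of freedom), so they were kept as 2 libraries. The ratio code was tested on simulated data. A member was called detected at 1 TPM. Scalings by total counts, spike-in counts and DESeq2 1.42.0 size factors, the second quantification, other thresholds and each library alone were tried as alternatives. Sequences came from mm10 and from RefSeq (GRCm38.p6), with Biopython for alignment.

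Members with a mean of 10 TPM or more, Abca1, Abcb1a and Abcb1b are given with both library values, other members at 1 TPM or more in both with mean and SD, and lower members by range or counts. The members, lists and tests were chosen with earlier results of these data known. The values of 2 members are not reported here, though sums and counts over the family include them.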

Additional observations from a re-analysis of the deposited data

How the results depend on the processing

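The number of members at 1 TPM or more in both libraries, 32, became 18 at 5 TPM and was 33 to 36 with the second quantification, coding TPM or 1 library alone, and 35 at 0.5 TPM. The summed TPM of subfamily B, 722, was 1086 in the second quantification and 519 to 924 with 1 library left out, and all 6 other subfamily sums were also higher in the second quantification. The TPM ratio of Abcb1b to Abcb1a, 46.3, was 49.1 in the second quantification, 45.9 to 46.7 with 1 library left out, 30.95 as a ratio of expected counts and 34.2 with full-length transcripts alone, the last chosen after seeing the data. All 11 members named by level had higher TPM in the second quantification. The mean rank of Abcb1b among protein-coding genes, 29.5, was 17.5 by coding TPM, where mitochondrial genes and Lars2 are left out of the list. The rescaling itself keeps the order of the remaining genes.

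The median log2 ratio of the members, 0.08, was 0.97 with total counts and 0.00 to 0.21 under the other settings. The number of members 2-fold or more apart, 0, was 11 with total counts (36.1% of all genes tested), 1 with spike-in counts (Abcg1; 1.43%), 3 at a mean of 10 counts, 6 with no minimum (9.02%) and 2 at 1.5-fold. It was 0 with DESeq2 size factors, the second quantification and a prior of 5 counts. With total counts the median of all tested genes also moved, to 0.91, beside the smaller coding part of replicate 1. The cause of these changes was not tested. No paired analysis was possible because there is 1 group and no replicate number is shared between groups. Counts limit the members under 100 counts, whose intervals span up to several log2 units, and 2 libraries limit every SD.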
